A study of Mus musculus with 13 samples.

Results

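The 89 nuclear genes that supply the oxidative phosphorylation machinery were compared in hearts of 3 genotypes of the CPT1B knock-in allele E3A. CPT1B is the muscle carnitine palmitoyltransferase of the outer mitochondrial membrane, which starts the entry of long-chain fatty acids into mitochondria, and the E3A change makes it less sensitive to inhibition by malonyl-CoA. Members were the gene symbols that begin with Nduf, Uqcr, Cox4 to Cox8 or Atp5, together with Sdha, Sdhb, Sdhc, Sdhd and Cyc1, with a mean of at least 1 CPM (reads of a gene scaled to the library total) over all 13 libraries. Of 24061 symbols in the count tables, 93 matched these names and 89 passed the threshold. The threshold used the mean over all libraries and no difference between groups.

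The 13 hearts came from male C57BL/6N mice aged 13 weeks and fed chow: 5 were E3A/E3A (both Cpt1b alleles changed), 4 WT/E3A (heterozygous) and 4 WT/WT, and the labels give no treatment. Poly(A) RNA of each heart was sequenced as 1 library of 100-nucleotide single-end reads. The labels describe 4 libraries as potential outliers, E3A/E3A replicates 1 and 2, WT/E3A replicate 1 and WT/WT replicate 1, without giving the basis, so each comparison was made with all 13 libraries and with the other 9, which hold 3 hearts per genotype. Counts per gene do not tell the E3A allele from the wild-type allele, and the genotypes rest on the labels.

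Oxidative phosphorylation passes electrons from NADH (complex I) and succinate (complex II) through ubiquinone, complex III and cytochrome c to oxygen at complex IV, and the proton gradient built by complexes I, III and IV drives ATP synthesis by complex V. The beating heart takes most of its ATP from this process, largely with fatty acids as fuel, and its muscle cells are packed with mitochondria. Complexes I, III, IV and V also contain subunits encoded by mitochondrial DNA, none of which had a row in the count tables, so the values concern the nuclear share of the machinery.

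By role the members comprised 35 complex I subunits, of which 7 form the conserved core and 28 are accessory, 4 of complex II, 9 of complex III, 15 of complex IV and 15 of complex V. A further 7 were complex I assembly factors (Ndufaf genes), 2 were Ndufa4, whose product is now placed in complex IV, and its relative Ndufa4l2, and 2 were Atp5s and Atp5sl, which carry the Atp5 name and were kept apart from the subunits. The 4 matching symbols under the threshold were Cox8c and Ndufs5, both listed at 0 in every library, Cox7b2 (mean 0.103 CPM) and Cox6b2, the testis isoform of Cox6b (0.984 CPM). The lowest members were Atp5l (6.46 CPM), Ndufb4 (7.38 CPM) and Cox4i2 (7.94 CPM). All 89 passed the filter on low counts in both fits. Libraries held 20.1 M to 52.6 M counted reads.

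The labelled libraries stood apart from the rest before any comparison of genotype. The biological coefficient of variation over all genes was 28.9% with 13 libraries and 7.85% with 9. Summed over 12 cardiomyocyte markers, the level was 150119 to 211366 CPM in the labelled libraries and 103188 to 116022 CPM in the other 9, and over 7 fibroblast markers 1833 to 4362 CPM in the labelled libraries and 1181 to 1364 CPM in the others. The 5 atrial markers summed to 429 to 690 CPM in the labelled libraries and 124 to 457 CPM in the others, 4 smooth muscle markers to 229 to 290 CPM and 168 to 244 CPM, and 8 endothelial markers to 1516 to 1786 CPM and 1348 to 1662 CPM. The atrial, smooth muscle and endothelial ranges overlapped between labelled and other libraries, while the cardiomyocyte and fibroblast ranges did not. Macrophage markers summed to 152 to 190 CPM in the labelled libraries and 156 to 201 CPM in the others. Lower in the labelled libraries, though overlapping, were 5 brown adipocyte markers at 107 to 183 CPM, against 167 to 398 CPM in the others, and 8 skeletal muscle markers at 982 to 1222 CPM, against 1190 to 1336 CPM. Most of the brown adipocyte sum came from Ppargc1a, also listed among the regulators below. It had 76.7 to 163 CPM in the labelled libraries and 144 to 379 CPM in the others, so this sum does not single out brown adipocytes. The skeletal muscle list includes Ckm and Acta1 and was not checked against cardiac expression, so that sum does not single out skeletal muscle. Nppa counts in both the cardiomyocyte and the atrial sum. All 12 cardiomyocyte markers were detected, as the heart label implies. Of 5 blood markers, 4 (the globin genes Hba-a1, Hba-a2, Hbb-bs and Hbb-bt) were listed at 0 in every library. CPM here and below are scaled by TMM factors over the 13 libraries unless a sentence says otherwise. The marker sums were taken on this scale alone.

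The 89 genes took 4.62% to 5.34% of all counted reads in the labelled libraries and 4.60% to 4.94% in the other 9. Per transcript length, as TPM, a level scaled by the length of the transcript and by the library, over the 9 unlabelled hearts, the top member was Atp5b, the catalytic beta subunit of the ATP synthase head, at 7923 ± 134 TPM (SD, n = 9), which had rank 13 of all genes, while the lowest member by this measure, Cox4i2, had rank 5652. Its partner in the head, Atp5a1 (alpha subunit), stood at 5209 ± 122 TPM, Cox4i1, the ubiquitous isoform of subunit 4 of complex IV, at 4306 ± 188 TPM, and Atp5g3, 1 of 3 genes for the membrane ring subunit c, at 4272 ± 71.9 TPM. The gap between Cox4i1 and Atp5g3 was smaller than their SDs, so their order is not resolved, whereas Atp5b and Atp5a1 differed by far more.

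Median levels fell in the order of complexes V, III, II, IV and I, although the ranges of their genes overlapped and complex II rests on 4 genes. The median member stood at 1815 TPM in complex V, 1419 TPM in complex III, 1182 TPM in complex II, 1027 TPM in complex IV and 670 TPM in complex I. With the longest transcript of each gene in place of the one chosen, these medians were 1701, 1564, 1317, 1144 and 674 TPM, in the same sequence of complexes. Within complex II the highest was Sdha, the flavoprotein that oxidises succinate, at 1743 ± 53.9 TPM. Complex III spanned 992 TPM (Uqcr10) to 2661 TPM (Cyc1, the haem subunit cytochrome c1), while complex IV ran down to 21.3 TPM for Cox4i2, the lung and hypoxia isoform of subunit 4. The 7 assembly factors, which build complex I without staying in it, lay between 30.8 TPM (Ndufaf3) and 72.0 TPM (Ndufaf1), below every subunit except Ndufb4, Cox4i2 and Atp5l. Ndufb4 (23.0 TPM) and Atp5l (29.6 TPM) lay far under the rest of their complexes. In the GENCODE annotation of GRCm38, 33.4% of the 100-base windows of the Ndufb4 transcript and 69.0% of those of Atp5l also occur in another annotated gene. The counting rule for reads that fit several places is not stated in the labels, which leaves both levels uncertain. The same holds for Atp5g2 (100% shared) and Atp5g1 (48.1%), which like Atp5g3 encode ring subunit c, and the level of Atp5g1 also turns on the transcript chosen, at 2314 TPM here and 378 TPM with its longest one. The longest transcript likewise lowered Uqcrq from 2168 to 643 TPM, under Uqcr10 (1105 TPM by that choice), Ndufc1 from 981 to 276 TPM, Ndufb2 from 670 to 77.7 TPM and Ndufab1 from 110 to 49.9 TPM. By that choice Ndufb2 and Ndufab1 lay below the highest assembly factor, Ndufaf1, at 80.2 TPM.

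**Figure D1:**
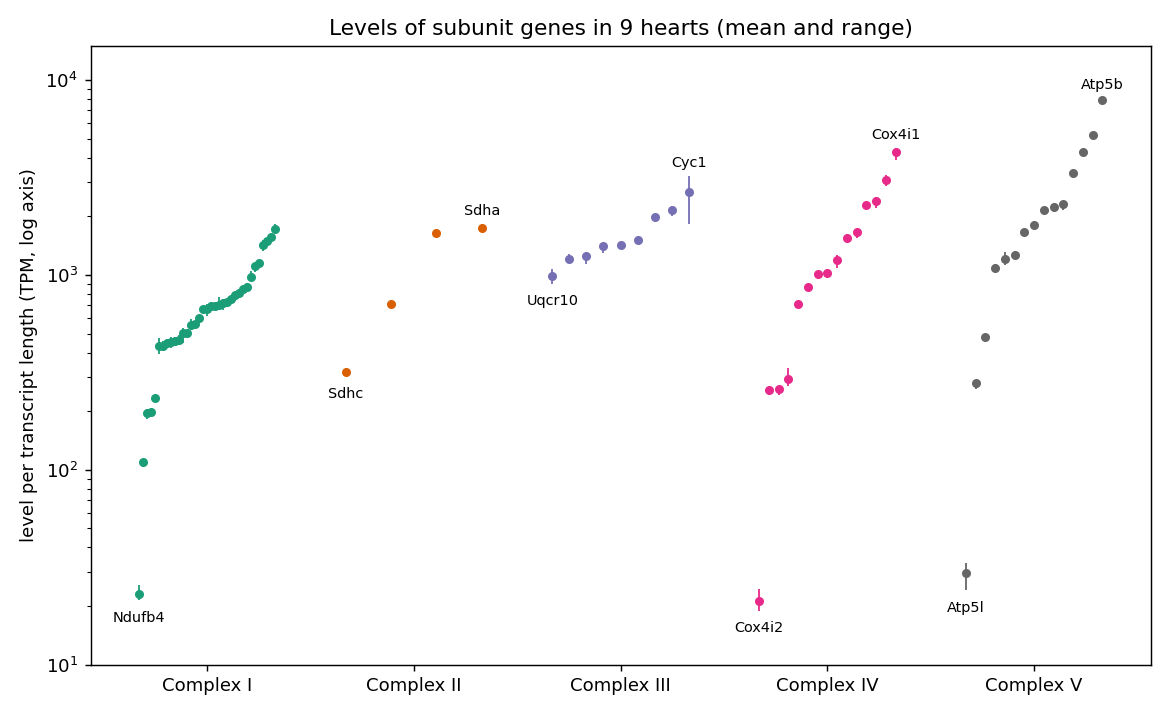
Mean level per transcript length (TPM, log axis) of each subunit gene over the 9 unlabelled hearts, ordered within complexes I to V, with bars from the lowest to the highest heart. The lowest gene of each complex and the highest of complexes II to V are named; Atp5b reaches 7923 TPM, and Cyc1 has the widest bar among the abundant genes.

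The comparisons asked whether weaker malonyl-CoA inhibition of CPT1B altered transcripts of the respiratory chain. With all 13 libraries, 0 of 89 members were called in E3A/E3A against WT/WT (edgeR's quasi-likelihood test, Benjamini-Hochberg adjusted p under 0.05 over 14387 genes; 0.00695% of all genes tested were called), and 0 had an unadjusted p under 0.05, against 1.2% of all genes. WT/E3A against WT/WT likewise gave 0 members (0% of all genes called; 0 members and 0.813% of genes at an unadjusted p under 0.05), as did E3A/E3A against WT/E3A (0% called; 0 members and 1.45% at an unadjusted p under 0.05). DESeq2 on the same libraries called 0 members in all 3 comparisons, where it called 0.167% of all genes in E3A/E3A against WT/WT, 0% in WT/E3A against WT/WT and 0.0278% in E3A/E3A against WT/E3A. At an unadjusted p under 0.05 it gave 0 members in each, against 1.56%, 1.11% and 2.18% of all genes. With shares this low, 0 of 89 members is near the background of each tool.

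Without the labelled libraries the count of members called was again 0 in each comparison, where 0.271%, 0.0209% and 0.0417% of the 14373 genes tested were called when E3A/E3A hearts were set against WT/WT, when WT/E3A hearts were set against WT/WT, and between E3A/E3A and WT/E3A hearts. At an unadjusted p under 0.05 the 9 libraries gave 0, 1 and 1 members in those comparisons, in that order, against 7.69%, 6.36% and 6.91% of all genes. The median member differed by a log2 value of -0.02, -0.01 and -0.00, beside 0.00, -0.00 and 0.00 for the median of all genes. With 13 libraries the medians were 0.00, -0.06 and 0.07, beside -0.02, -0.00 and -0.02 for all genes, and leaving the labelled libraries out thus moved the last 2 closer to 0. Below 0 lay 42, 77 and 21 members with 13 libraries (56.3%, 50.6% and 55% of all genes) and 59, 63 and 47 with 9 libraries (49.4%, 50.5% and 49.2%). The 77 members below 0 in WT/E3A against WT/WT with 13 libraries included all 15 genes of complex IV and all 9 of complex III, with no member past a log2 value of -0.26. The 3 comparisons share libraries and are not independent of each other.

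The absence of calls was accompanied by narrow intervals in the 9 hearts. The 95% interval of the fold change lay inside 1.5-fold in either direction for all 89 members between E3A/E3A and WT/WT (79.8% of all genes tested), for 88 between WT/E3A and WT/WT (78.4%) and for 88 between E3A/E3A and WT/E3A (78.6%). The member outside 1.5-fold in both of the last comparisons was Cyc1. With all 13 libraries only 49, 46 and 44 members had an interval inside 1.5-fold in the same comparisons (49.3%, 45.7% and 47% of all genes). For the other members that fit did not exclude a difference of that size.

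**Figure D2:**
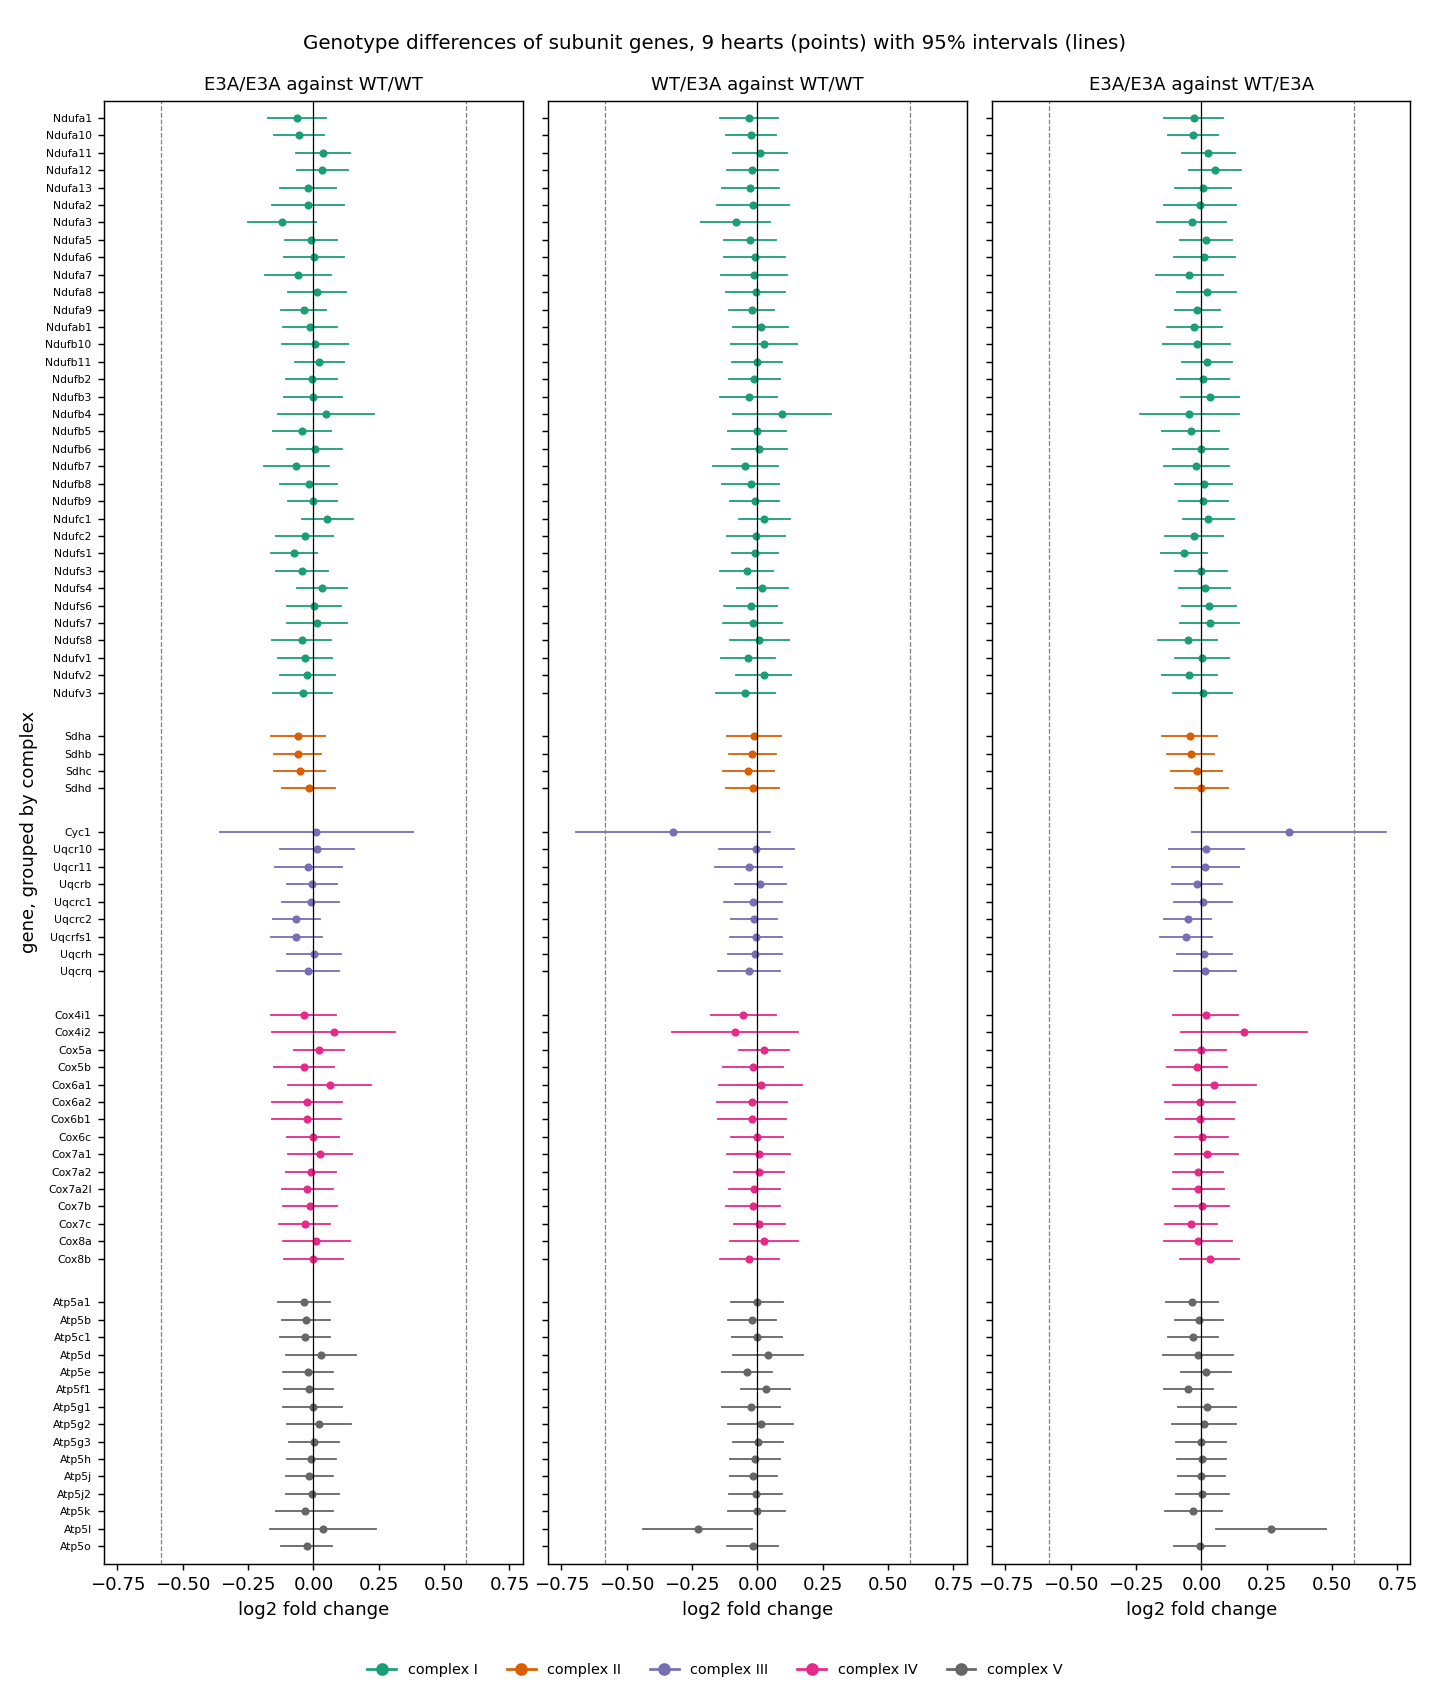
Log2 fold change (points) and 95% interval (lines) of the subunit genes in the 3 genotype comparisons, from the fit on 9 hearts, without 1 complex I gene; dashed lines mark 1.5-fold in either direction. Points lie close to 0 in all complexes, and the interval of Cyc1 crosses a dashed line in the comparisons that involve WT/E3A.

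Complex I summed to 9965 ± 184 CPM in E3A/E3A, 10017 ± 347 CPM in WT/E3A and 10142 ± 102 CPM in WT/WT hearts (SD, n = 3 each). Heart by heart the E3A/E3A sums were 10020, 10115 and 9760 CPM (replicates 3 to 5), those of WT/E3A 9960, 9702 and 10389 CPM (replicates 2 to 4), and those of WT/WT 10079, 10086 and 10260 CPM (replicates 2 to 4). The genotypes overlapped, and the widest spread was within WT/E3A. The 7 core subunits of complex I carry the flavin and the iron-sulfur clusters. Among them the median difference of E3A/E3A from WT/WT was a log2 value of -0.04, and among the 28 accessory subunits -0.01. The core subunit Ndufs1, which holds several iron-sulfur clusters, had 770, 754 and 767 CPM in E3A/E3A, 785, 805 and 809 CPM in WT/E3A and 804, 802 and 808 CPM in WT/WT hearts. The 3 E3A/E3A hearts lay under the 3 WT/E3A and the 3 WT/WT hearts by a small margin, against WT/WT a log2 fold change of -0.08 (SE 0.04; edgeR unadjusted p = 0.0847, adjusted p = 0.735), and the labelled libraries overlapped this range, with 709 and 773 CPM in E3A/E3A, 697 CPM in WT/E3A and 670 CPM in WT/WT. Ndufa3, an accessory subunit, had the lowest p of complex I in that comparison (log2 fold change -0.12, SE 0.06; edgeR adjusted p = 0.704). Ndufv1, the subunit that binds NADH, averaged 799 ± 5.52 CPM in E3A/E3A, 798 ± 44.1 CPM in WT/E3A and 818 ± 27.2 CPM in WT/WT hearts (SD, n = 3 each).

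Complex II, the succinate dehydrogenase shared with the tricarboxylic acid cycle, summed to 3637 ± 47.7 CPM in E3A/E3A, 3732 ± 160 CPM in WT/E3A and 3776 ± 97.4 CPM in WT/WT hearts. All 4 of its genes had a log2 fold change below 0 in E3A/E3A against WT/WT (49.4% of all genes tested did), between -0.06 and -0.02, and 0 were called. Sdha had 2047, 2113 and 2066 CPM in E3A/E3A hearts, 2120, 2045 and 2262 CPM in WT/E3A hearts and 2071, 2218 and 2197 CPM in WT/WT hearts. The genotypes overlapped. Sdhb, its iron-sulfur partner, had 786, 779 and 759 CPM in E3A/E3A, 792, 777 and 821 CPM in WT/E3A and 808, 801 and 812 CPM in WT/WT hearts, and the E3A/E3A hearts lay under the WT/WT hearts with a log2 fold change of -0.06. In the 13-library fit that value was 0.02, on the other side of 0.

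Complex III summed to 6388 ± 261 CPM in E3A/E3A, 6066 ± 430 CPM in WT/E3A and 6471 ± 244 CPM in WT/WT hearts, the most variable of the 5 complexes, with a coefficient of variation of 5.32% over the 9 hearts. Its most variable gene was Cyc1 (chr15:76343523-76346260, plus strand, GRCm38). It had 2068, 1727 and 1703 CPM in E3A/E3A replicates 3 to 5, 1611, 1153 and 1596 CPM in WT/E3A replicates 2 to 4, and 1932, 1572 and 1951 CPM in WT/WT replicates 2 to 4. WT/E3A replicate 3 was the lowest, and all 3 E3A/E3A hearts lay above all 3 WT/E3A hearts while overlapping WT/WT. The log2 fold change was 0.34 in E3A/E3A against WT/E3A (95% interval -0.04 to 0.71; edgeR adjusted p = 0.743), -0.32 in WT/E3A against WT/WT (-0.70 to 0.05; adjusted p = 0.794) and 0.01 in E3A/E3A against WT/WT. A two-sided exact permutation test of log2 values (0.1 CPM added) gave p = 0.1 for E3A/E3A against WT/E3A and p = 0.3 for WT/E3A against WT/WT, where 0.1 is the smallest p that 3 against 3 allows. The labelled libraries held 1340 and 1036 CPM of Cyc1 in E3A/E3A, 1725 CPM in WT/E3A and 1820 CPM in WT/WT. With them the log2 fold change was 0.05 in E3A/E3A against WT/E3A, -0.26 in WT/E3A against WT/WT and -0.21 in E3A/E3A against WT/WT, so the first shrank and the last grew. The lowest heart of all was then E3A/E3A replicate 2.

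The spread of Cyc1 set it apart from the other members. Its coefficient of variation over the 9 hearts was 15.9%, while the other 88 members ranged from 1.41% (Ndufa9) to 9.66% (Atp5l) with a median of 3.69%. Of 232 genes with a mean of at least 500 CPM, 4 had a higher coefficient of variation. None of the windows of its transcript is shared with another annotated gene. Other subunits of complex III varied less. Uqcrc1, a core subunit, averaged 1385 ± 19.6 CPM in E3A/E3A, 1380 ± 90.7 CPM in WT/E3A and 1396 ± 45.3 CPM in WT/WT hearts, and Uqcrfs1, the Rieske iron-sulfur protein, 781 ± 30.2 CPM in E3A/E3A, 814 ± 28.6 CPM in WT/E3A and 818 ± 11.4 CPM in WT/WT hearts (SD, n = 3 each).

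Complex IV summed to 5641 ± 123 CPM in E3A/E3A, 5632 ± 357 CPM in WT/E3A and 5698 ± 177 CPM in WT/WT hearts. Cox5a and Cox5b, structural subunits around the catalytic core, averaged 627 ± 8.49 and 369 ± 15.4 CPM in E3A/E3A, 629 ± 27.2 and 374 ± 25.4 CPM in WT/E3A, and 618 ± 12.1 and 378 ± 9.58 CPM in WT/WT hearts. Log2 fold changes of the 15 genes in E3A/E3A against WT/WT ran from -0.04 to 0.08. The highest was that of the scarce Cox4i2 (95% interval up to 0.31).

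Complex V summed to 18558 ± 226 CPM in E3A/E3A, 18786 ± 658 CPM in WT/E3A and 18881 ± 296 CPM in WT/WT hearts. Of its catalytic pair, Atp5a1 averaged 5322 ± 41.7 CPM in E3A/E3A, 5460 ± 243 CPM in WT/E3A and 5460 ± 174 CPM in WT/WT hearts (SD, n = 3 each). Atp5b had 6389, 6351 and 6252 CPM in E3A/E3A, 6242, 6248 and 6611 CPM in WT/E3A and 6390, 6435 and 6545 CPM in WT/WT hearts, and its 95% interval in E3A/E3A against WT/WT was a log2 value of -0.12 to 0.06. Atp5l, the g subunit that helps ATP synthase form dimers, gave the only unadjusted p under 0.05 among the members: 7.30, 6.79 and 7.66 CPM in E3A/E3A, 6.45, 5.94 and 5.70 CPM in WT/E3A, and 7.36, 6.77 and 6.98 CPM in WT/WT hearts. The WT/E3A hearts lay under the other 6, with a log2 fold change of 0.27 in E3A/E3A against WT/E3A (SE 0.10; edgeR unadjusted p = 0.0167, adjusted p = 0.694) and -0.23 in WT/E3A against WT/WT (SE 0.10; unadjusted p = 0.0341, adjusted p = 0.766). Neither passed the adjusted threshold, and Atp5l had only 116 to 321 reads per library, in a transcript largely shared with other genes.

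With the labelled libraries included, the genotypes still overlapped in every complex, and the SD within a genotype was largest relative to its mean for complex I. Complex I then averaged 11604 ± 2373 CPM in E3A/E3A (SD, n = 5), 11290 ± 2561 CPM in WT/E3A (n = 4) and 11713 ± 3144 CPM in WT/WT hearts (n = 4). Complex II averaged 3659 ± 45.2 CPM in E3A/E3A, 3666 ± 186 CPM in WT/E3A and 3715 ± 146 CPM in WT/WT hearts, and complex III 6577 ± 431 CPM in E3A/E3A, 6315 ± 609 CPM in WT/E3A and 6799 ± 686 CPM in WT/WT hearts. Complex IV averaged 6322 ± 1018 CPM in E3A/E3A, 6002 ± 795 CPM in WT/E3A and 6330 ± 1271 CPM in WT/WT hearts, and complex V 20134 ± 2219 CPM in E3A/E3A, 20160 ± 2801 CPM in WT/E3A and 20330 ± 2909 CPM in WT/WT hearts. Complex II was the only 1 of complexes I to V in which no labelled library exceeded all 9 others. In complex I the labelled E3A/E3A hearts stood at 15135 and 12990 CPM, WT/E3A at 15107 CPM and WT/WT at 16428 CPM.

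**Figure D3:**
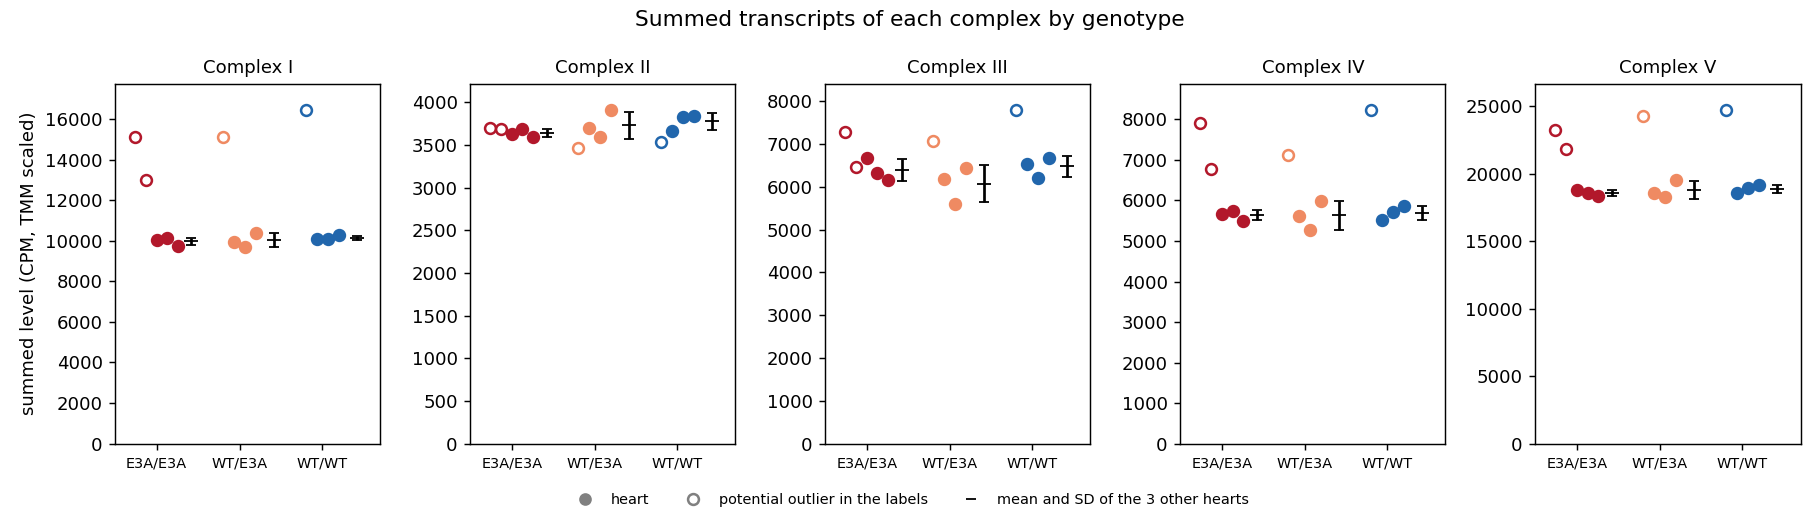
Summed TMM-scaled level (CPM, axes from 0) of the subunit genes of complexes I to V in each heart, with E3A/E3A to the left of WT/E3A and WT/WT; open circles are libraries described as potential outliers, and black marks the mean and SD of the 3 other hearts. Filled circles of the 3 genotypes overlap in every complex, and open circles lie above them in complexes I, IV and V.

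In some single hearts most members lay on the same side of the mean of the 9 hearts. In WT/E3A replicate 4, 80 of 89 members lay above it, with a median log2 deviation of 0.06, while in WT/E3A replicate 3 and E3A/E3A replicate 5 only 21 and 11 did, with medians of -0.06 and -0.04. In the other 6 hearts 53 and 62 members of E3A/E3A replicates 3 and 4, 30 of WT/E3A replicate 2 and 38, 48 and 70 of WT/WT replicates 2 to 4 lay above the mean. Of all genes tested, 49.1% to 52.5% lay above the mean in each of the 9 hearts. The summed level of all members averaged 44986 ± 771 CPM in E3A/E3A, 45041 ± 1928 CPM in WT/E3A and 45773 ± 732 CPM in WT/WT hearts (SD, n = 3 each). Titles of the samples start with C2, C3, C4 or C6, codes that the labels do not explain. Among the unlabelled hearts of C3, a pair from E3A/E3A and a single heart from each of WT/E3A and WT/WT, the median member differed by a log2 value of -0.01 in E3A/E3A against WT/WT, 0.00 in WT/E3A against WT/WT and -0.01 in E3A/E3A against WT/E3A, and among those of C4 by 0.02 in E3A/E3A against WT/E3A. C2 held only labelled libraries and C6 only WT/WT.

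Complex IV has muscle isoforms of 3 subunits, which replace the ubiquitous isoforms in heart and skeletal muscle. Per transcript length the muscle form prevailed in all 9 unlabelled hearts. The ratio of Cox6a2 to Cox6a1 was 10.7, 9.30 and 10.7 in E3A/E3A, 10.2, 10.7 and 10.7 in WT/E3A, and 10.1, 11.4 and 10.9 in WT/WT hearts. The ratio of Cox7a1 to Cox7a2 averaged 3.44 ± 0.0208 in E3A/E3A, 3.35 ± 0.164 in WT/E3A and 3.36 ± 0.0689 in WT/WT hearts, and that of Cox8b to Cox8a 6.50 ± 0.366 in E3A/E3A, 6.28 ± 0.0871 in WT/E3A and 6.53 ± 0.272 in WT/WT hearts (SD, n = 3 each). The genotypes overlapped for each ratio. In the labelled libraries the first ratio was only 3.13 and 5.15 in E3A/E3A, 1.72 in WT/E3A and 1.54 in WT/WT, while the other ratios were higher than in the 9, at 3.80 to 5.67 for Cox7a1 to Cox7a2 and 7.86 to 10.1 for Cox8b to Cox8a. Cox4i1 exceeded Cox4i2 in every library, by a ratio of 182 to 298, and Ndufa4 exceeded Ndufa4l2, by 8.61 to 30.8 in the labelled libraries and 59.5 to 74.7 in the others.

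**Figure D4:**
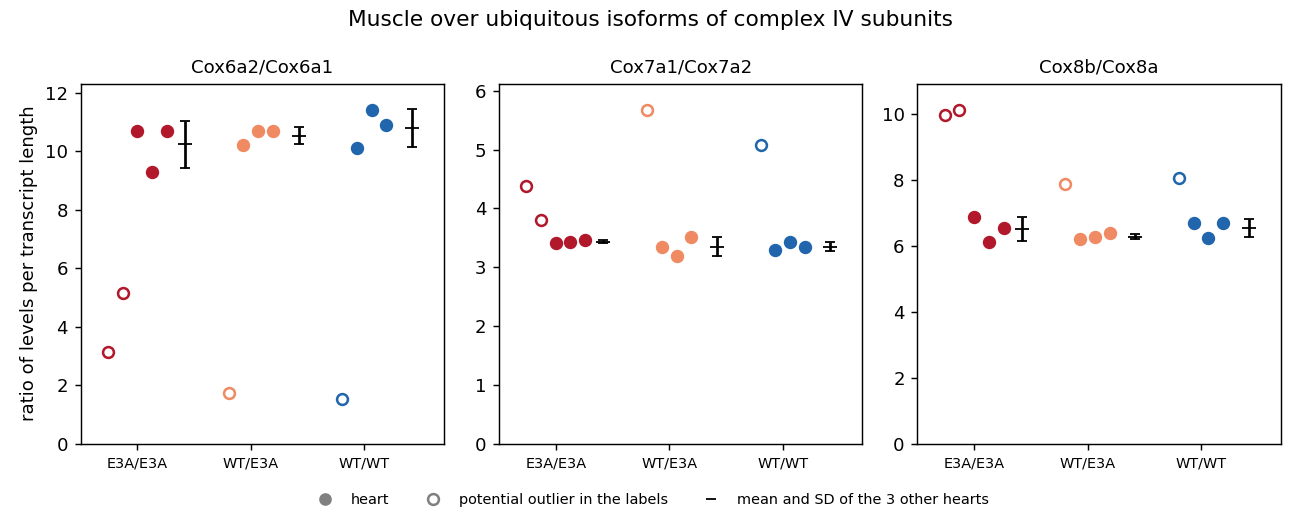
Ratio of muscle to ubiquitous isoform of complex IV subunits 6a, 7a and 8, as levels per transcript length, in each heart, with E3A/E3A to the left of WT/E3A and WT/WT (axes from 0); open circles are libraries described as potential outliers and black marks the mean and SD of the 3 other hearts. Filled circles lie at 9.30 to 11.4, 3.19 to 3.52 and 6.12 to 6.86, with no separation of the genotypes.

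The promoters of a muscle and a ubiquitous isoform are shown because the pair differs in level per length while encoding isoforms of the same subunit. Each stretch runs from 250 bases before to 50 after the RefSeq start (GRCm38.p6, minus strand, written 5′ to 3′ along the gene), and capitals mark matches, on either strand, to short motifs of factors known to act on respiratory genes: the NRF1 palindrome, exact or with its sixth base free, TCAAGGTCA for the oestrogen-related receptors (ERR), AAGATGGC for YY1 and CCGGAAG for ETS factors such as GABP. The exact and the relaxed NRF1 motif overlap by construction. Cox8b lies at chr7:140900397-140900696 and Cox8a at chr19:7217567-7217866.
Cox8b: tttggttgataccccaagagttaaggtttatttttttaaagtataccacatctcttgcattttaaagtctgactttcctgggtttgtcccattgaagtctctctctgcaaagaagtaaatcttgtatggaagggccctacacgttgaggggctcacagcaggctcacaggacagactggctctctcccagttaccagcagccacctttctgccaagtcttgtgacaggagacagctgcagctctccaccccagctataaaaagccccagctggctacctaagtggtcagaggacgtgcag
Cox8a: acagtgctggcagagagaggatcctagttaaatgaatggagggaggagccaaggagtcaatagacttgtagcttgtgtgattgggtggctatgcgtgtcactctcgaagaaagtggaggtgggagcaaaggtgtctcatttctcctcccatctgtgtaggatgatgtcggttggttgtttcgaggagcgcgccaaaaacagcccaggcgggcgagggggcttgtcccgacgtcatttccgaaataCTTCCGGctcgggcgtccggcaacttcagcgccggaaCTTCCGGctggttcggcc
None of these letters occurs in the Cox8b window, which has 48.3% GC, and Cox8a holds the ETS motif at positions 246 and 283 counted from the first base shown, with 56% GC. Atp5g3 (chr2:73911277-73911576) and Cox6a1 (chr5:115348909-115349208) are shown as members with the ERR motif (and a relaxed NRF1 motif) and with the exact NRF1 motif.
Atp5g3: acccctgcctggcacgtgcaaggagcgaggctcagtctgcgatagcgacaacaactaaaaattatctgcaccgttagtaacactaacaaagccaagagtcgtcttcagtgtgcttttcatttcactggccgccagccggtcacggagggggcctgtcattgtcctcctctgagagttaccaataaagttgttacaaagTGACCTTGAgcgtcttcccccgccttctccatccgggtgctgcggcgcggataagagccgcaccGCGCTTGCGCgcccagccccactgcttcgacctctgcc
Cox6a1: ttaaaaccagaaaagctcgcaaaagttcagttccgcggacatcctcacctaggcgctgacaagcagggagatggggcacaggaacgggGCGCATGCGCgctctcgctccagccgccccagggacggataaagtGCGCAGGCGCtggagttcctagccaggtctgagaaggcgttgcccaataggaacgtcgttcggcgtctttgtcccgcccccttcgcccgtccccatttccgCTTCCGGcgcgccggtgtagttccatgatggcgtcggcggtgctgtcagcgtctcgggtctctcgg
Of 73 members with a RefSeq promoter, 7 (9.59%) held the exact NRF1 palindrome, against 1.96% of the promoters of genes tested. The relaxed form was found in 17 (23.3%, against 9.71%), AAGATGGC in 10 (13.7%, against 4.4%), CCGGAAG in 16 (21.9%, against 16.8%) and TCAAGGTCA in 2, Atp5g3 and Sdhd (2.74%, against 0.28%). A match describes letters in this window only and is not evidence of binding.

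The labelled libraries differed from the other 9 by log2 values of -2.59 to 1.92 across the members, beside -0.32 to 0.34 in the genotype comparisons of the 9. This contrast is described without a test, because the label may have been given from these same counts. In a fit with genotype and label, 34 members were higher in the labelled libraries by a log2 value of at least 0.5 (24.2% of all genes tested) and 16 lower by as much (27%). In 41 members all 4 labelled libraries lay above all 9 others (25.9% of all genes) and in 22 below (27.1%), leaving 26 that overlapped. The median member was 0.29 higher in log2, and the median of all genes -0.02. In log2 values of single hearts against the other hearts of their genotype, CPM of the total count put the median member at 0.01 and the median gene at -0.29, where TMM scaling gave 0.28 and -0.02, so that the members lay about 0.3 above the median gene on either scale, but the split of members above and below 0 was 45 and 44 in place of 54 and 35, and 9 members changed side. TMM factors were 0.805 to 0.955 in the labelled libraries and 1.03 to 1.09 in the others.

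Subunits of the same complex went in opposite directions in these libraries. In complex I, Ndufa13 (chr8:69894180-69902558, minus strand, GRCm38), an accessory subunit also known as GRIM-19, had 904 and 631 CPM in the labelled E3A/E3A, 1213 CPM in WT/E3A and 1252 CPM in WT/WT libraries, against 247 to 280 CPM in the other 9. Ndufb4, another accessory subunit, had 1.55 and 3.43 CPM in E3A/E3A, 0.757 CPM in WT/E3A and 1.15 CPM in WT/WT labelled libraries, against 8.81 to 10.3 CPM in the others. Ndufa12 was likewise low, at 9.99 to 31.0 CPM against 88.5 to 96.9 CPM. Ndufa4, kept apart from complex I, was also low, at 138 to 356 CPM against 502 to 537 CPM. In complex V, Atp5e, the epsilon subunit of the central stalk, was high at 729 to 1135 CPM against 304 to 330 CPM, and Atp5c1, the gamma subunit of the same stalk, low at 318 to 681 CPM against 1039 to 1126 CPM. These directions held on the total-count scale, where the extremes were 1.58 and -2.84 in log2. In all 6 of these genes E3A/E3A replicate 2 was the labelled library closest to the other 9. Parts of Ndufa13 (24% of windows) and Ndufb4 are shared with another annotated gene.

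Base composition moved with these differences. Across the 89 members the label difference had a Spearman correlation of 0.57 with the GC content of the transcript and -0.06 with its length, and across 14274 genes with a length 0.68 with GC content and -0.17 with length. These are descriptions across genes that share the same libraries. Members above the median GC content of 51.7% had a median log2 difference of 0.48 (43 genes), and those at or below it -0.27 (46 genes). The part of GC content, of the marker levels given above and of depth in the label difference was not tested. In whole-heart RNA fewer cells of a type and less RNA per cell cannot be told apart.

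**Figure D5:**
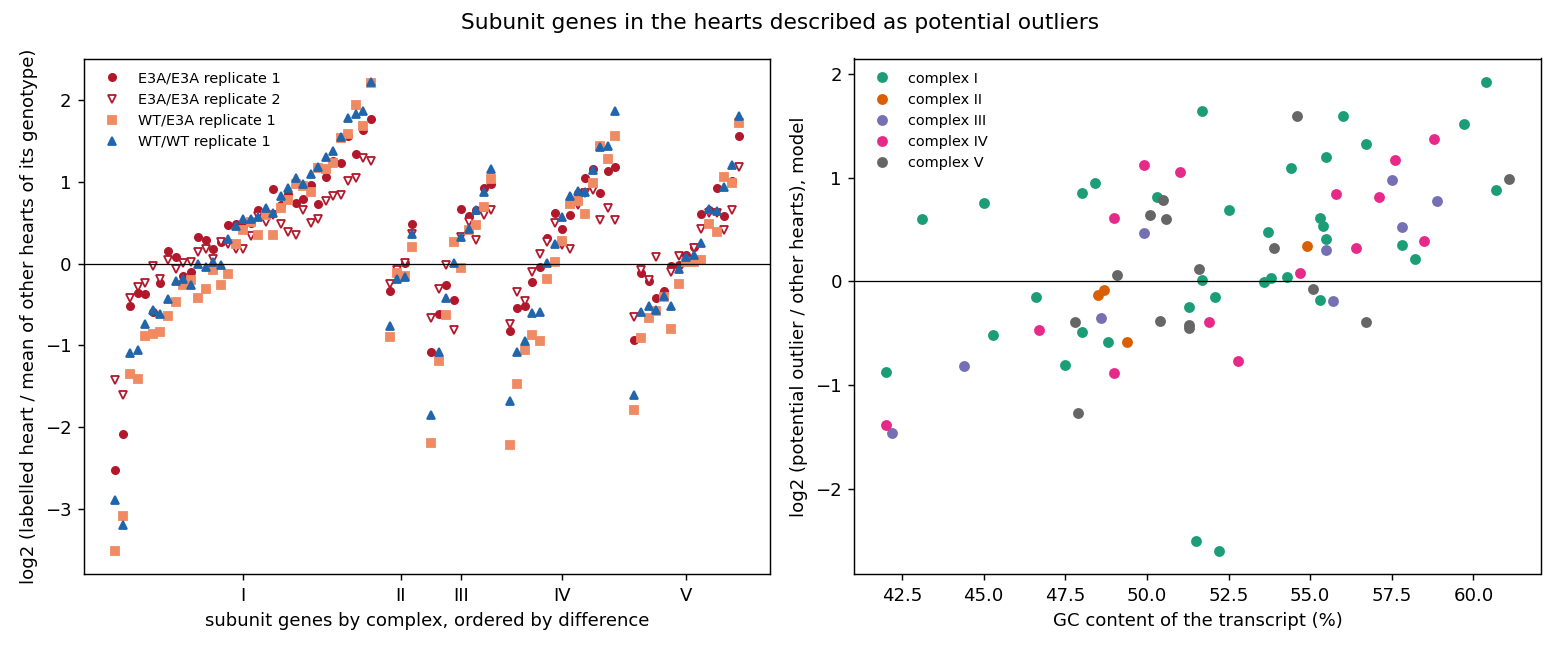
Left, log2 ratio of each library described as a potential outlier to the mean of the other hearts of its genotype (0.1 CPM added), for each subunit gene ordered within complexes I to V. Right, the modelled log2 difference of those libraries from the other 9 against the GC content of the transcript (%), coloured by complex; genes of higher GC content tend to lie higher, while Ndufb4 and Ndufa12 lie lowest near 52% GC.

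Other genes of the pathway were read from lists of known function. Of 39 tested assembly and maturation factors of the complexes outside the Ndufaf family, 22 carriers and partners and 12 regulators, 0 were called in any comparison with 13 or with 9 libraries (edgeR adjusted p over all genes). In the 9 hearts the median log2 fold change of E3A/E3A against WT/WT was -0.03 for assembly factors, -0.01 for carriers and partners and -0.03 for regulators. In WT/E3A against WT/WT these medians were -0.00, 0.00 and 0.05, and in E3A/E3A against WT/E3A -0.02, -0.01 and -0.07. Of the 12 regulators, 10 had a log2 fold change below 0 in E3A/E3A against WT/E3A (49.2% of all genes did). So had 27 of 39 assembly factors and 14 of 22 carriers and partners. In WT/E3A against WT/WT 3 regulators lay below 0 (50.5% of all genes did) and 9 above. These comparisons share the WT/E3A hearts. The coactivator gene Ppargc1b (-0.37), Esrrg, an oestrogen-related receptor (-0.15), and Tfam, the mitochondrial transcription factor A (-0.14), had an unadjusted p under 0.05 in E3A/E3A against WT/E3A, with edgeR adjusted p of 0.717, 0.694 and 0.714. Of all genes 6.91% had such a p there. So had the regulators Esrrb and Tfb2m in E3A/E3A against WT/WT (7.69% of all genes) and Nrf1 in WT/E3A against WT/WT (6.36%). Outside the regulators, Atpaf1 and Coq3 had one in E3A/E3A against WT/WT, and Coq3 also in E3A/E3A against WT/E3A. With 13 libraries only Ppargc1b had one, in E3A/E3A against WT/E3A (1.45% of all genes), and it was not called. Ppargc1b had 41.9, 47.3 and 61.8 CPM in unlabelled E3A/E3A and 72.2, 61.5 and 61.2 CPM in unlabelled WT/E3A hearts, which overlapped. The labelled libraries held 48.7 and 48.9 CPM in E3A/E3A and 86.2 CPM in WT/E3A. Coq3, a methyltransferase of ubiquinone synthesis, had the lowest p of the 73 genes: 49.4, 51.0 and 49.9 CPM in E3A/E3A, 52.3, 60.8 and 57.9 CPM in WT/E3A and 61.9, 57.1 and 58.3 CPM in WT/WT hearts. The E3A/E3A hearts lay under all others, a log2 fold change of -0.24 against WT/WT (SE 0.06; edgeR unadjusted p = 0.00119, adjusted p = 0.160), which was not called. With the labelled libraries the groups overlapped, at 50.6 and 50.5 CPM in E3A/E3A, 42.6 CPM in WT/E3A and 51.9 CPM in WT/WT. Ppargc1a, the coactivator PGC-1 alpha that drives expression of respiratory genes, varied most, with 149, 151 and 379 CPM in E3A/E3A, 152, 197 and 264 CPM in WT/E3A and 144, 155 and 164 CPM in WT/WT hearts. Its highest heart, E3A/E3A replicate 5, was the heart in which only 11 members lay above the mean. In the next highest, WT/E3A replicate 4 (264 CPM), 80 members did. Whether Ppargc1a and the members moved together across hearts was not tested. Cycs, cytochrome c itself, stood in the 9 hearts at 326 to 331 CPM in E3A/E3A, 334 to 352 CPM in WT/E3A and 327 to 348 CPM in WT/WT, and was higher in the labelled libraries, at 440 and 402 CPM in E3A/E3A, 460 CPM in WT/E3A and 502 CPM in WT/WT.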

How the data were processed

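Poly(A) RNA of 13 mouse hearts was counted per gene. The deposited values are raw counts of reads by gene symbol, which the authors made with STAR 2.4.0 and featureCounts 1.4.4 on mm10 (GRCm38), per the submitters' processing notes; strand and multiple-mapping settings are not given in the sources used here. Groups came from the genotype labels. Members and gene lists were chosen with earlier results of these data known. Fits used edgeR 4.0.16 in R 4.3.3 (filter by filterByExpr within genotypes, TMM scaling, estimateDisp and robust glmQLFit, quasi-likelihood F test), once over 13 and once over 9 libraries, with Benjamini-Hochberg adjustment over all genes tested. The 95% intervals come from these fits, and the p-values set each difference against the spread between hearts. TPM used the transcript of lower median length among the principal coding ones of GENCODE. The code was tested on simulated data. DESeq2 1.42.0, its size factors, no low-count filter, the outlier label as covariate, the title prefix as a block and leaving out each library were the alternatives. Genes named are those of lowest p, of extreme level or of largest difference in each complex, the isoform pairs, the core subunits and those near the CPM threshold. Genes named for the label contrast, Coq3, Ppargc1a, Ppargc1b, Esrrb, Esrrg, Tfam, Tfb2m, Nrf1, Atpaf1 and Cycs were picked after their values were seen. A complex I gene is counted in the sets but not reported here by itself.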

Additional observations from a re-analysis of the deposited data

Results flagged for a closer look

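In 42 groups of 4 or 5 hearts examined for a single heart far from the others of its genotype, 14 values stood apart, all 14 in libraries described as potential outliers. Chance flags about 1 in 20 groups, but the count is not to be read against that share: sums and ratios overlap in their genes, Ndufa13 and Ndufa4 were picked for their label difference after their values were seen, and the basis of the label is not given. In WT/E3A replicate 1 these were the summed level of complex I (15107 CPM), Ndufa13 (1213 CPM), Ndufc1 (105 CPM), Ndufa4 (138 CPM) and the ratios of Cox6a2 to Cox6a1 (1.72), Cox7a1 to Cox7a2 (5.67) and Cox8b to Cox8a (7.86). In WT/WT replicate 1 they were the summed levels of complex I (16428 CPM), complex IV (8224 CPM) and complex V (24680 CPM), Ndufa13 (1252 CPM), Ndufa4 (161 CPM) and the ratios of Cox6a2 to Cox6a1 (1.54) and Cox7a1 to Cox7a2 (5.08). E3A/E3A holds a pair of labelled libraries, and no heart of it stood apart in this way.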

How the results depend on the processing

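No member was called under any alternative run, and the smallest adjusted p of a member was 0.429. Leaving out each library in turn kept the count of members called at 0 in each comparison, with 13 and with 9 libraries. The median log2 difference of the members then ran from -0.01 to 0.12 in E3A/E3A against WT/WT, from -0.08 to 0.01 in WT/E3A against WT/WT and from 0.03 to 0.13 in E3A/E3A against WT/E3A with 13 libraries. With 9 libraries the ranges were -0.03 to -0.00, -0.04 to 0.01 and -0.02 to 0.03. With the title prefix as a block the 13-library medians were 0.02, 0.05 and -0.01, so 2 of them lay on the other side of 0. Of 415 values of answers to comparisons under alternatives, 1 moved by more than the spread between hearts. This was the summed level of complex II in E3A/E3A hearts, 3706 CPM of the total count against 3659 CPM with TMM scaling. For results of the 13 libraries that spread includes the labelled libraries, so few moves say little about robustness. Without them complex I in WT/WT hearts went from 11713 to 10142 CPM, within a spread of 3144 CPM. Counts of called genes have no such spread. Of 4368 values of single named members, 619 had the opposite sign and 9, some of these included, moved by more than the spread between hearts: in E3A/E3A against WT/E3A without the labelled libraries those of Atp5b, Atp5k, Cox7a1, Cyc1, Ndufa6, Ndufc1 and Uqcr10, and with the title prefix as a block those of Cox7a1 in WT/E3A against WT/WT and Ndufa7 in E3A/E3A against WT/E3A. TPM by the longest transcript, an alternative chosen after seeing the data, kept the order of the complexes. Over all genes with 13 libraries DESeq2 called 24, 0 and 4, against 1, 0 and 0 by edgeR. Members past a log2 value of 0.5 by label numbered 46 to 56 when a labelled library was left out, against 50 with all. Replicate numbers follow accession order and pair no hearts, so hearts were matched only by title prefix, as above. Counts of few reads, as for Atp5l and Ndufb4, limit what can be said of those genes.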
